A study of Homo sapiens with 12 samples.

Results

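The mean of the transfected DU145 prostate cancer lines was compared with the untransfected knock-out line from which both had been made, to describe the genes that were moved alike in the line given the α2 integrin gene and in the line given the empty vector. DU145KO, the untransfected line, is DU145 (an established human prostate carcinoma cell line) with ITGA2, the gene of the integrin α2 subunit, targeted by CRISPR-Cas9. DU145KO cells were a GFP-selected population from which cells still expressing α2 had been removed by flow sorting, so a single clone is not stated. DU145KO+α2 cells were DU145KO cells stably transfected with the pAWneo2 plasmid carrying α2, DU145KO+vector cells carried pAWneo2 without it, and both were cultured with geneticin. They are also called the α2 line and the vector line. All 3 lines thus share the ITGA2 knock-out and the preceding exposure to the CRISPR-Cas9 plasmid, and all were grown as spheroids of 8000 cells in serum-free medium for 72 h. There were 4 biological replicates of each line, so the comparison used all 12 samples of the series, 8 transfected and 4 untransfected. Transfection, geneticin, passage and the derivation of each line were applied together and cannot be told apart here. The lines are not parallel repeats of transfection either, since 1 line was made with each plasmid.

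Geneticin is an aminoglycoside that blocks protein synthesis, and the neo gene of the plasmid inactivates it. Stable transfection keeps the cells in which a plasmid has integrated and which grow under the drug, so a selected line descends from a part of the starting population. Foreign DNA in the cytoplasm is known to be sensed by receptors that switch on interferon-stimulated genes, and MHC class II genes are switched on by the transactivator CIITA in professional antigen presenting cells and, after interferon gamma, in many epithelial cells. These points are background and were not measured here.

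Of 26485 genes in the count table, 14732 had enough reads to be tested. A gene was called DE (differentially expressed) when the mean of both transfected lines differed from DU145KO by a fold change above 2 with an adjusted p below 0.05 in edgeR. The contrast called 192 genes. Of these, 181 were lower in the transfected lines, which is 1.23% of the genes tested, and 11 were higher, which is 0.0747%. Without the fold limit, 1283 genes (8.71%) were lower and 712 (4.83%) were higher, so the excess of lower genes was larger among genes with a large fold change. The median log2 fold change of all genes tested was 0.00094. Each line on its own differed from DU145KO in 377 genes for DU145KO+α2 (2.56%) and in 218 for DU145KO+vector (1.48%), and these 2 comparisons share the DU145KO samples. DU145KO+α2 and DU145KO+vector differed from each other in 395 genes (2.68%).

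A gene was counted as moved alike when it was called in the mean, was called in the same direction in each line, and had a 95% interval of the difference between the 2 transfected lines within 1 on the log2 scale, that is within a fold of 2. The first 2 conditions fix the direction against DU145KO, whereas the difference between the transfected lines does not use the DU145KO samples. Of the 192 genes, 34 were moved alike, 33 of them lower and 1 higher. A further 66 were called in both lines but with an interval reaching past the limit, 65 lower and 1 higher, and are named graded here. In 70 genes the call held in DU145KO+α2 only, and in 22 in DU145KO+vector only. The 33 alike lower genes had a median log2 fold change of -1.47 against DU145KO. Of these, 26 had no overlap between the 8 transfected and the 4 untransfected samples. Over all genes, 1.58% had no overlap with the transfected samples lower and 0.658% with them higher. The 33 genes were chosen on these same samples, so their separation follows largely from the rule and is no added support. At the limit of the rule, RNF128 was inside with an interval of -0.96 to -0.07 and HLA-DPA1 was outside with -1.01 to 0.37. At the fold limit, RASAL1 was inside with a log2 fold change of -1.01 and EPCAM was outside with -0.99.

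**Figure D1:**
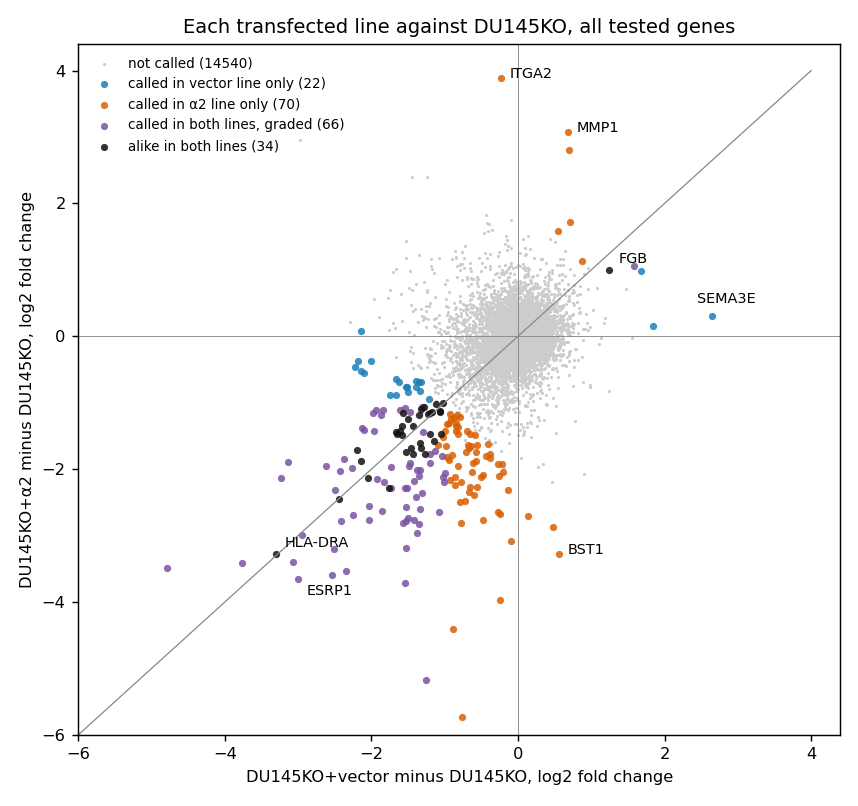
Log2 fold change of each tested gene in DU145KO+vector (horizontal) and in DU145KO+α2 (vertical) against the same DU145KO samples, coloured by class, with the line of equal change. The 34 genes moved alike lie along the line of equal change, 33 of them in the lower left and FGB in the upper right.

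The targeted gene was checked first. ITGA2 (chromosome 5, GRCh38 positions 52989352 to 53094779) had 21.2, 20.2, 25.8 and 15.7 TMM-scaled CPM (read counts scaled to the size of the library) in DU145KO, 301.0, 328.0, 332.0 and 259.0 in DU145KO+α2, and 18.8, 18.2, 20.2 and 13 in DU145KO+vector. The α2 line thus stood apart, as its label says, and the mRNA level does not show whether a knock-out allele makes protein. ITGA2 passed the test of the mean with a log2 fold change of 1.83 only through the α2 line, where it was 3.89, against -0.23 in the vector line. Epithelial markers (KRT8, KRT18, KRT19, EPCAM and CDH1) were abundant in every sample, with a summed level of 1210 to 1580 CPM in DU145KO, 860 to 1150 in DU145KO+α2 and 1140 to 1390 in DU145KO+vector. The sum was thus lower in DU145KO+α2, and its part in the results was not tested. Of the prostate luminal markers, KLK2, KLK3 and FOLH1 had no read in any sample and HOXB13 had at most 1 read in a sample. Markers of fibroblasts, leukocytes and endothelium summed to 8.47 to 12.7, 2.93 to 4.22 and 1.09 to 3.81 CPM across the 12 samples, and the 3 haemoglobin genes had no read. Total counts were 13948734 to 19988111 per sample, at which 3 counts correspond to 0.150 to 0.215 CPM, and this floor covers counting error only.

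Promoters of some called genes are shown for reference, read from RefSeq (GRCh38.p14) over the 250 bases before the annotated start of the gene. DSP and EPHA1 are shown for the genes moved alike, with the E box CAGGTG in capitals, a motif bound by repressors such as ZEB1, ZEB2 and SNAI1. HLA-DOB is shown for the MHC class II genes moved alike, with TGATTGG in capitals, the core of the Y box of class II promoters. GBP1 is shown for the interferon-stimulated genes, with the response core in capitals, that is GAAA, 2 bases of any kind and GAAA again, which reads as its reverse complement on the printed strand.
DSP, chr6:7541421-7541670, plus strand: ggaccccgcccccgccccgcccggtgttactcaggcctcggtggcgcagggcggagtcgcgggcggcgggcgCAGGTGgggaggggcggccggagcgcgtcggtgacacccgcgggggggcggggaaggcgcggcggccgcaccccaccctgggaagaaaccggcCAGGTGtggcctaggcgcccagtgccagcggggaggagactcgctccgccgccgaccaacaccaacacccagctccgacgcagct
EPHA1, chr7:143408857-143409106, minus strand: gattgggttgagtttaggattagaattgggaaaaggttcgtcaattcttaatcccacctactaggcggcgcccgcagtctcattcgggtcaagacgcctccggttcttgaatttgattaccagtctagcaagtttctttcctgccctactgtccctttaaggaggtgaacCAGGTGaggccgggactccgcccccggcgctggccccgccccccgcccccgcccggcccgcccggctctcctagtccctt
HLA-DOB, chr6:32817003-32817252, minus strand: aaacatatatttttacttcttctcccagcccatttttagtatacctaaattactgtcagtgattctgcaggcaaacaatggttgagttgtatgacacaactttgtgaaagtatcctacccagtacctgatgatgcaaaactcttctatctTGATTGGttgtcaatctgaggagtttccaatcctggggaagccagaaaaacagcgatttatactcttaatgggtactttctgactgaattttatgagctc
GBP1, chr1:89065209-89065458, minus strand: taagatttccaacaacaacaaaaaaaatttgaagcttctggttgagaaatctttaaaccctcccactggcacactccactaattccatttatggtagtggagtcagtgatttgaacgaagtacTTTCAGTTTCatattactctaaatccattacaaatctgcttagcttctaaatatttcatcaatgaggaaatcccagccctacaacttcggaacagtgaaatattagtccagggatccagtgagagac

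Promoters were matched for 11572 of the genes tested and for 26 of the alike lower genes, and both strands were searched. CAGGTG was in 11 of the 26 promoters (42.3%), in 35 of the 137 promoters of all called lower genes (25.5%) and in 16.5% of all 11572. In DSP it stood 178 and 85 bases before the start and in EPHA1 80 bases before it, and CLDN7 held none in this window. TGATTGG was in 6 of 13 promoters of the MHC class II list (46.2%), in 4.38% of the promoters of called lower genes, in 3.85% of those of alike lower genes and in 8.7% of all. It stood 100 bases before the start of HLA-DOB, and the other 5 class II list genes that held it were not called. The called genes HLA-DPA1, HLA-DPB1 and CD74 held none in this window. The window of HLA-DPA1 lies within the annotated span of HLA-DPB1, so it may not be the promoter in use. No promoter was matched for the called genes HLA-DRA and CIITA, so these were not searched. The interferon response core was in 14 of 25 promoters of the interferon list (56.0%) and in 2.33% of all. It was in 8.76% of the promoters of called lower genes and in 7.69% of those of alike lower genes. Of the called list genes with a matched promoter, BST2, GBP1 and IFI44L held it and MX1, OAS1 and XAF1 did not. The other list genes that held it were not called. These are descriptions of letters in a window, and no test was made of them.

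The MHC class II genes held the alike gene with the lowest fold change, HLA-DRA, the α chain of HLA-DR. HLA-DRA had 23.4, 13.7, 12.7 and 13.3 CPM in DU145KO, 2.24, 1.8, 1.0 and 1.46 in DU145KO+α2, and 2.72, 1.8, 1.15 and 0.758 in DU145KO+vector. Every transfected sample was below every untransfected sample, with the lowest DU145KO level 4.66-fold above the highest transfected one. The log2 fold change of the mean was -3.29 ± 0.14 (SE, adjusted p = 7.48e-14 in edgeR), a fold of 9.76, with -3.27 in DU145KO+α2 and -3.30 in DU145KO+vector. The transfected lines differed from each other by 0.03 on the log2 scale, with an interval of -0.42 to 0.49. In bulk RNA such a value cannot tell fewer cells expressing a gene from less RNA in each cell.

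CIITA, which encodes the transactivator of these genes, had 2.91, 2.32, 2.46 and 2.46 CPM in DU145KO, 0.311, 0.85, 1.12 and 1.02 in DU145KO+α2, and 1.16, 1.29, 0.805 and 0.758 in DU145KO+vector. The groups did not overlap, and the log2 fold change was -1.47 ± 0.23 (SE, adjusted p = 1.20e-04 in edgeR). CIITA shares 10.7% of its exon bases with DEXI on the opposite strand, and whether the counting used strand is not stated. HLA-DOB, which encodes a chain of the HLA-DO modulator of peptide loading, was at 3.51 to 6.72 CPM in DU145KO and 1.18 to 3.99 in the transfected samples, so the groups overlapped, with a log2 fold change of -1.34. HLA-DPA1 and HLA-DPB1, the chains of HLA-DP, had log2 fold changes of -3.24 and -2.11 with intervals of the line difference reaching past 1, and their transfected levels were at most 1.29 and 0.75 CPM.

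CD74, the invariant chain that accompanies class II molecules, was called in DU145KO+α2 only, at -1.43 against -0.85 in DU145KO+vector, and the transfected lines differed by -0.59 (adjusted p = 0.0029 in edgeR). HLA-DRB1 passed the adjusted p at -0.58 but not the fold limit, and was lower in DU145KO+vector (-0.95) than in DU145KO+α2 (-0.21). Reads of HLA-DRB1 can be shared with near-identical HLA-DRB genes, so its level is uncertain. Over the whole list, 6 of 16 tested members were called lower and none higher, against 1.23% and 0.0747% of all genes tested. By adjusted p alone 12 were lower, against 8.71% of all genes, and the list median was -0.53. RFX5, RFXANK and RFXAP, which form the complex that binds class II promoters, did not pass the test, with log2 fold changes of -0.05, 0.11 and -0.10. Without DU145KO replicate 1, in which HLA-DRA and CD74 were highest, 6 of the 16 genes were called lower.

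**Figure D2:**
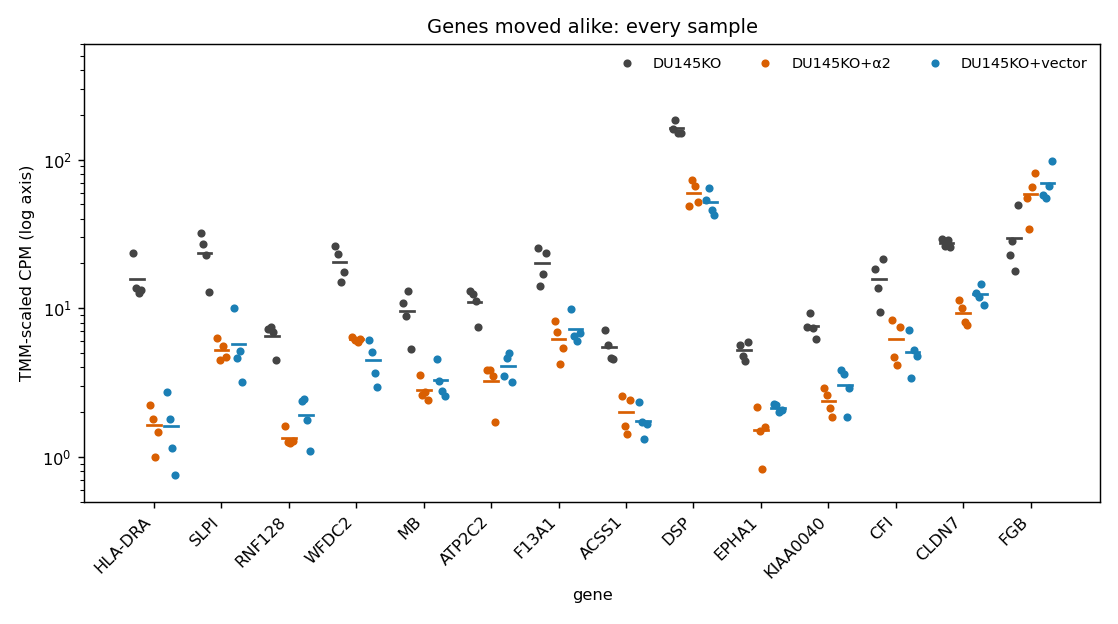
TMM-scaled CPM on a log axis of 14 genes moved alike, with 1 point per sample (points of 1 line are spread sideways) and a bar at the mean of each line (n = 4). In 13 genes every transfected sample lies below every DU145KO sample, whereas for FGB the DU145KO samples reach from 17.9 to 49.5 and overlap the transfected ones, which start at 34.1.

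The alike genes also held DSP and CLDN7, which encode cell junction proteins. DSP, which encodes desmoplakin, the desmosome protein that anchors keratin filaments, had 161.0, 186.0, 150.0 and 152.0 CPM in DU145KO, 49.0, 72.4, 66.6 and 51.6 in DU145KO+α2, and 53.3, 64.0, 46.0 and 42.7 in DU145KO+vector. The groups stood well apart, the means being 162 ± 16.5, 59.9 ± 11.4 and 51.5 ± 9.43 CPM (SD, n = 4). The log2 fold change was -1.56 ± 0.07 (SE, adjusted p = 8.97e-10 in edgeR), and the transfected lines differed by 0.22, with an interval of 0.04 to 0.40. CLDN7, a claudin of tight junctions, had 29.1, 26.3, 28.7 and 25.8 CPM in DU145KO, 11.3, 9.99, 8.03 and 7.7 in DU145KO+α2, and 12.6, 11.9, 14.6 and 10.5 in DU145KO+vector. Its log2 fold change was -1.36 ± 0.08 (SE, adjusted p = 1.62e-10 in edgeR), and within the limit of the rule the α2 line was still lower than the vector line, with a line difference of -0.42 (adjusted p = 0.0053 in edgeR).

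EPHA1, a receptor tyrosine kinase for membrane-bound ephrins, had 5.69, 4.77, 4.43 and 5.91 CPM in DU145KO, 2.17, 1.5, 0.827 and 1.59 in DU145KO+α2, and 2.27, 2.23, 2.01 and 2.07 in DU145KO+vector. The groups did not overlap, and the log2 fold change was -1.53 ± 0.15 (SE). KRT81, a hair keratin, was at 5.5 to 11.1 CPM in DU145KO and at 2.55 to 5.4 in the transfected samples (-1.27). It was the only called gene of 9 tested keratins, against 1.23% of all genes tested called lower. By adjusted p alone 3 of the 9 keratins were lower, against 8.71% of all genes. In RPKM, the authors' level per gene length, DSP averaged 16.5 in DU145KO, CLDN7 13.3 and HLA-DRA 1.53, so the class II gene was the lowest of these 3.

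Of 18 tested members of the list of epithelial and mesenchymal genes, ESRP1 and CLDN7 were called lower and ZEB2 was called higher. Over all genes tested, 1.23% were called lower and 0.0747% higher. By adjusted p alone 10 members were lower and 3 higher, against 8.71% and 4.83% of all genes, and the list median was -0.40. ESRP1, a splicing regulator of epithelial cells, had 4.43, 5.87, 6.21 and 4.33 CPM in DU145KO, 0.559, 0.4, 0.295 and 0.382 in DU145KO+α2, and 0.388, 0.646, 0.805 and 0.758 in DU145KO+vector. It differed by -3.33 ± 0.22 (SE, adjusted p = 7.41e-11 in edgeR), was graded because its line difference of -0.65 had an interval of -1.41 to 0.10, and its lowest DU145KO level was 5.38-fold above the highest transfected one. ZEB2, a repressor of epithelial genes, had 0.86, 0.489, 0.369 and 0.644 CPM in DU145KO, 0.807, 0.75, 1.48 and 1.91 in DU145KO+α2, and 1.66, 1.8, 1.09 and 2.62 in DU145KO+vector. Its levels were low and the groups overlapped, with a log2 fold change of 1.32 ± 0.31 (SE, adjusted p = 0.0038 in edgeR).

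CDH1, EPCAM and MARVELD3, named after their values were seen, were lower in the mean by less than the fold limit. CDH1, which encodes E-cadherin, was at 118 to 161 CPM in DU145KO, 46.8 to 74.7 in DU145KO+α2 and 83.4 to 116 in DU145KO+vector, with a log2 fold change of -0.79 (adjusted p = 0.022 in edgeR) and a line difference of -0.71 (adjusted p = 0.036). In DU145KO+vector on its own CDH1 was at -0.43 and did not pass the test (adjusted p = 0.192 in edgeR). Of the epithelial keratins, KRT18 was lower in the mean by adjusted p alone (-0.29), whereas KRT8 (-0.17) and KRT19 (0.02) did not pass. EPCAM, an epithelial adhesion molecule, was at 140 to 186 CPM in DU145KO and at 57.3 to 93.7 in the transfected samples, with no overlap. MARVELD3, a tight junction protein, was at 9.53 to 11.9 and 4.85 to 7.23 CPM, also with no overlap, and its log2 fold change was -0.95. VIM, which encodes the mesenchymal filament protein vimentin, and ZEB1, a repressor related to ZEB2, were higher by 0.22 and 0.35. S100A4, a mesenchymal gene of the list, was among the 10 lower by adjusted p. It was at 4.36 to 5.23 CPM in DU145KO, 2.78 to 3.9 in DU145KO+α2 and 3.05 to 4.66 in DU145KO+vector. CLDN4, a claudin, was also among the 10, but lower in the vector line only. Its levels were 129 to 217 CPM in DU145KO, 158 to 201 in DU145KO+α2 and 57.7 to 107 in DU145KO+vector. CDH3, ESRP2 and TJP3 were lower by adjusted p too, whereas OCLN, CLDN1 and SNAI1 did not pass the test.

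Among the alike genes that encode secreted proteins, SLPI and WFDC2 were lower. SLPI, the secretory leukocyte protease inhibitor, had 32, 27.1, 22.9 and 12.8 CPM in DU145KO, 6.33, 4.5, 5.55 and 4.71 in DU145KO+α2, and 10, 4.6, 5.12 and 3.17 in DU145KO+vector. Its log2 fold change was -2.10 ± 0.14 (SE, adjusted p = 2.71e-07 in edgeR), with a line difference of -0.09 and an interval of -0.51 to 0.33. WFDC2, a secreted protein of the same WAP-domain family and also on chromosome 20, had 26.3, 23.3, 14.9 and 17.6 CPM in DU145KO, 6.4, 6.15, 5.97 and 6.18 in DU145KO+α2, and 6.1, 5.1, 3.68 and 2.96 in DU145KO+vector. WFDC2 differed by -1.95 ± 0.11 (SE, adjusted p = 3.98e-11 in edgeR), and here the vector line was the lower one, the line difference being 0.48 (adjusted p = 0.018).

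F13A1, the A subunit of clotting factor XIII, had 25.6, 14.2, 17.0 and 23.6 CPM in DU145KO and 4.19 to 9.86 in the transfected samples (-1.57), and CFI, complement factor I, had 18.5, 13.6, 9.4 and 21.3 in DU145KO and 3.38 to 8.38 in the transfected samples (-1.47). FGB, the β chain of fibrinogen, was the only alike gene that was higher. It had 22.7, 28.5, 17.9 and 49.5 CPM in DU145KO, 54.8, 34.1, 65.9 and 80.7 in DU145KO+α2, and 58.0, 55.2, 66.0 and 97.9 in DU145KO+vector. Replicate 4 was the highest sample in each line, the groups overlapped because of DU145KO replicate 4, and each transfected sample was above the DU145KO sample of its own number. The log2 fold change of FGB was 1.12 ± 0.21 (SE, adjusted p = 0.018 in edgeR), and the call was lost without the replicate block and without DU145KO replicate 1 or 3.

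MB, RNF128, ATP2C2, ACSS1 and KIAA0040 were the other alike genes among those with the lowest fold change. MB, which encodes the oxygen-binding protein myoglobin, was at 5.33 to 13 CPM in DU145KO and 2.42 to 4.54 in the transfected samples (-1.63). RNF128, a ubiquitin ligase, was at 4.45 to 7.45 and 1.1 to 2.44 CPM (-2.02), and ATP2C2, a calcium and manganese pump of the secretory pathway, was at 7.49 to 13.1 and 1.72 to 5.0 (-1.61). ACSS1, a mitochondrial enzyme that makes acetyl-CoA from acetate, was at 4.57 to 7.15 and 1.32 to 2.55 CPM (-1.56), and KIAA0040 was at 6.21 to 9.23 and 1.84 to 3.82 (-1.50). None of these overlapped between the groups. GSTM2, a glutathione transferase, did overlap, at 3.69 to 8.53 and 1.52 to 4.43 CPM (-1.21), and its reads can be shared with near-identical GSTM genes.

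The remaining 16 alike genes, named after their values were seen, were all lower. RNF43, a ubiquitin ligase that limits Wnt receptors at the cell surface, averaged 14.8 CPM in DU145KO, 6.61 in the α2 line and 6.36 in the vector line (-1.18), and ADGRV1, an adhesion G protein-coupled receptor, averaged 17.4, 7.86 and 8.25 (-1.11). S100A14, a calcium-binding protein of epithelia, averaged 4.62, 1.66 and 2.22 CPM (-1.26), and NFASC, the adhesion molecule neurofascin, 5.45, 1.87 and 1.84 (-1.54). ACOXL (-2.45), EPS8L1 (-2.01), ENTPD3 (-1.51), CD164L2 (-1.39), BLACAT1 (-1.37), KLHDC7B (-1.20), VIPR1 (-1.17), ATP6V1C2 (-1.16), GHR (-1.09) and RASAL1 (-1.01) had an average log2 CPM below 1, and TAS1R3 (-1.36) and VSX1 (-1.07) were just above it. In 11 of these 16 genes every transfected sample was below every DU145KO sample, and in ATP6V1C2, CD164L2, GHR, KLHDC7B and NFASC the groups overlapped.

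**Figure D3:**
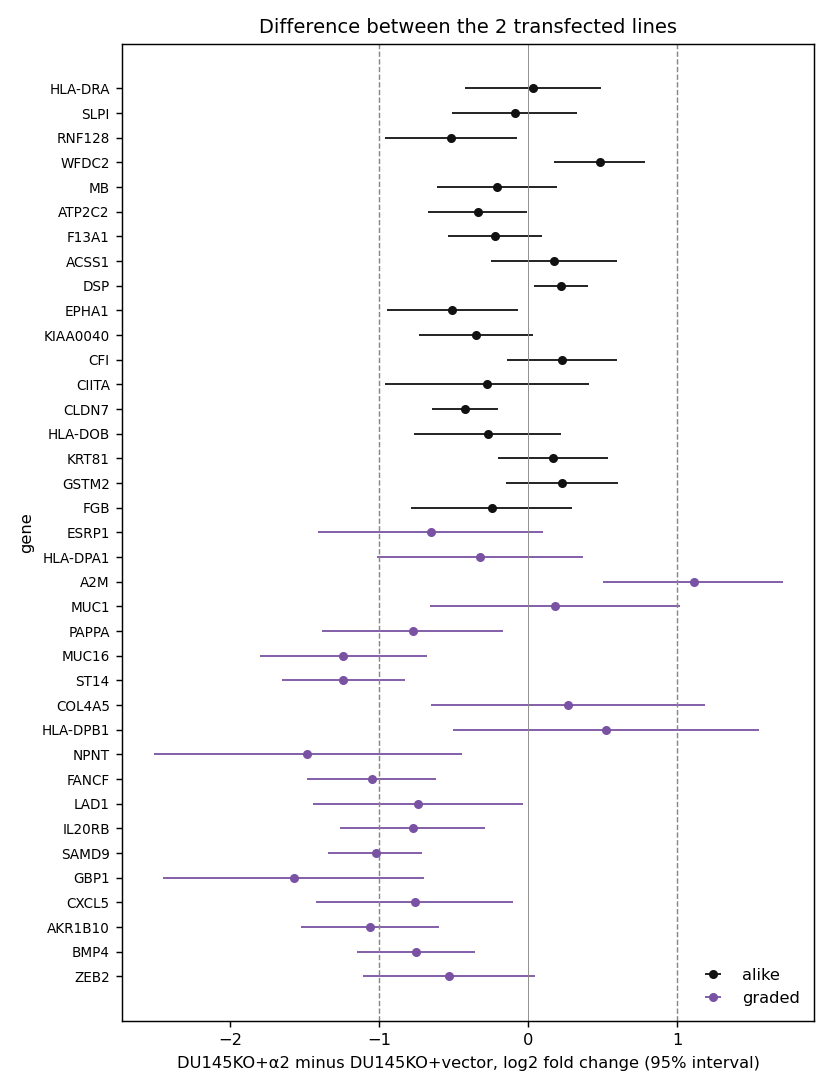
Log2 difference between DU145KO+α2 and DU145KO+vector with its 95% interval for the alike and graded genes named, sorted within each class by the fold change against DU145KO, and the limits of the rule as dashed lines. The interval of HLA-DRA is centred on 0.03, whereas ST14, MUC16 and GBP1 lie at -1.24, -1.24 and -1.57.

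In the graded genes the change was shared by both lines but its size differed or was not fixed well enough. Of the 65 graded lower genes, 45 were lower in the α2 line than in the vector line, and over the 98 genes called lower in each line this held for 58 (59.2%), against 51.4% of all genes tested. The 12 graded genes with the lowest fold change and a mean log2 CPM of at least 1, chosen after their values were seen, ran from ESRP1 at -3.33 to SAMD9 at -1.90. MUC1, a transmembrane mucin of epithelial surfaces, had 624.0, 553.0, 283.0 and 215.0 CPM in DU145KO, 73.3, 70.5, 62.6 and 103.0 in DU145KO+α2, and 102.0, 75.2, 57.6 and 51.8 in DU145KO+vector. The 4 DU145KO samples of MUC1 were spread widely, and the lowest was 2.08-fold above the highest transfected sample, and the log2 fold change was -2.41 ± 0.28 (SE, adjusted p = 0.0025 in edgeR). Its line difference was 0.18 with an interval of -0.66 to 1.02, which kept it out of the alike genes by a narrow margin.

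ST14, the membrane protease matriptase, had 40.4, 29.6, 27.2 and 41.6 CPM in DU145KO, 6.96, 5.25, 3.43 and 4.58 in DU145KO+α2, and 13.9, 10.6, 13.3 and 9.64 in DU145KO+vector. All transfected samples were below DU145KO, and the α2 samples were all below the vector samples, with a line difference of -1.24 (adjusted p = 4.56e-04 in edgeR). SPINT1, which encodes an inhibitor of matriptase, had log2 fold changes of -1.36 in DU145KO+α2 and -0.83 in DU145KO+vector, so that it was called in the α2 line only. MUC16, a second mucin, was at 10.3 to 22.0 CPM in DU145KO, 1.6 to 2.24 in DU145KO+α2 and 3.17 to 7.77 in DU145KO+vector. A2M, a broad protease inhibitor of plasma, was the reverse, with log2 fold changes of -2.13 in DU145KO+α2 and -3.24 in DU145KO+vector and a line difference of 1.11 (adjusted p = 0.0053 in edgeR). NPNT, an integrin ligand of basement membranes, PAPPA, a protease of insulin-like growth factor binding proteins, FANCF, a DNA repair protein, LAD1, an anchoring protein of basement membranes, IL20RB, a cytokine receptor chain, and SAMD9, an interferon-inducible protein, had log2 fold changes of -2.10, -2.24, -2.05, -1.91, -1.91 and -1.90. Among named graded genes of the other lists were BMP4, a growth factor (-1.42), CXCL5, a neutrophil chemokine (-1.80), COL4A5, a collagen of basement membranes (-2.12), and AKR1B10, an aldo-keto reductase (-1.53).

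Interferon-stimulated genes were lower mainly in the α2 line. Of 36 tested members of the list of DNA sensing and interferon response, 7 were called lower in the mean and none higher. Over all genes tested, 1.23% were called lower and 0.0747% higher. By adjusted p alone 23 members were lower, against 8.71% of all genes, and the list median was -0.57. The median was -0.93 in DU145KO+α2 and -0.20 in DU145KO+vector, and no member was moved alike. Between the transfected lines, 2.68% of all genes tested were called, in either direction. Of the list, 15 members were called lower in the α2 line than in the vector line and 1 was called higher. The higher one was IFITM2, a membrane protein induced by interferon, at 0.41 in DU145KO+α2 and -1.41 in DU145KO+vector, with a line difference of 1.82. OAS1, an enzyme that senses double-stranded RNA, had 34.2, 9.9, 11.9 and 19.4 CPM in DU145KO, 5.59, 3.35, 4.14 and 3.31 in DU145KO+α2, and 14.4, 10.1, 11.2 and 14.1 in DU145KO+vector. The vector samples lay within the range of the DU145KO samples, and the difference between the transfected lines was -1.60 (adjusted p = 0.0015 in edgeR). IFI44L, OAS2, BST2, XAF1 and MX1 were likewise called in DU145KO+α2 only, and GBP1, a guanylate-binding protein induced by interferon, was graded at -1.86. STAT2, which carries the interferon signal, did not pass the test (-0.06).

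DU145KO replicate 1 had the highest summed level of the interferon list, 2110 CPM against 1370 to 1660 in the other DU145KO samples, and replicate 1 was also the highest in both transfected lines, at 1320 and 1800. Without that DU145KO sample, an alternative chosen after the values were seen, 5 of the 36 genes were called lower, MX1 and XAF1 no longer being called, and the medians of the α2 and the vector line were -0.75 and -0.05. Of 18 tested MHC class I and peptide loading genes, 17 were lower by adjusted p alone, against 8.71% of all genes tested. Only PSMB9, a subunit of the immunoproteasome, was called lower, at -1.32, against 1.23% of all genes called lower. The list median was -0.47 in the mean of both lines. The median was -0.70 in DU145KO+α2 and -0.28 in DU145KO+vector. ERAP2, which trims peptides, and HLA-B, a class I heavy chain, had log2 fold changes of -0.95 and -0.69, and both differed between the transfected lines as well (adjusted p = 4.13e-08 and 2.80e-06 in edgeR).

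**Figure D4:**
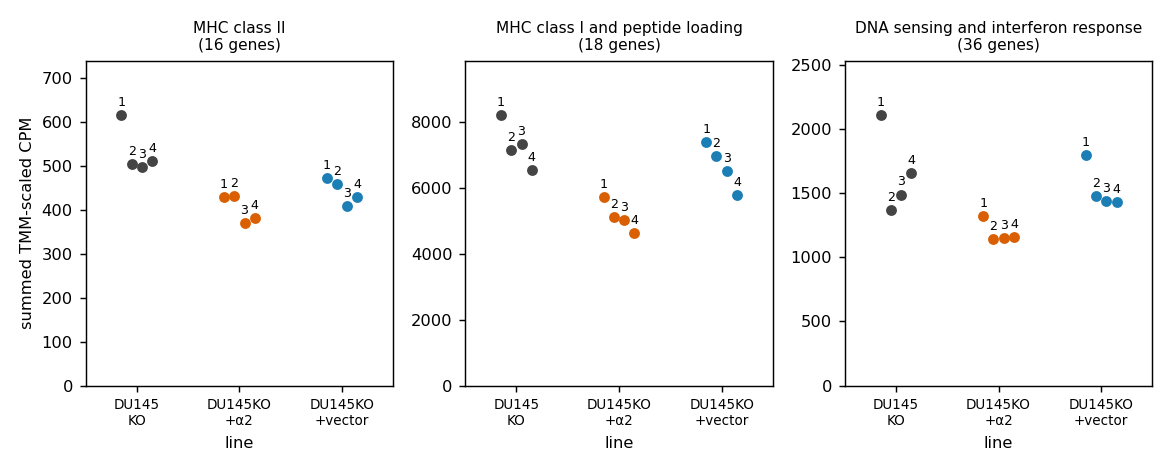
Summed TMM-scaled CPM of the tested members of 3 gene lists in each sample, labelled by replicate number, with axes from 0. For MHC class II both transfected lines (370 to 472) lie below DU145KO (497 to 615), whereas for the interferon list the vector samples (1430 to 1800) lie among the DU145KO samples (1370 to 2110) and the α2 samples (1140 to 1320) lie below them.

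Lists for other responses that transfection or an aminoglycoside might involve held few or no called genes. Over all genes tested, 1.23% were called lower and 0.0747% higher. Lists of this size would thus hold few called genes in any case, here and in the lists that follow. None of 20 p53 and DNA damage genes, 23 amino acid and unfolded protein stress genes, 29 lysosome and autophagy genes and 25 genes of cholesterol and fatty acid synthesis was called, and their medians were -0.01, -0.12, -0.11 and 0.09. By adjusted p alone, 1283 genes (8.71%) were lower and 712 (4.83%) higher over all genes tested. On that measure the same lists held 1, 1, 7 and 2 lower genes and 1, 0, 0 and 2 higher ones. The 7 lower genes of the 29 in the lysosome and autophagy list were above the share over all genes, which was not tested. Of 22 genes of drug export and of aldehyde or glutathione metabolism, GSTM2 and AKR1B10 were called lower, and of 15 genes of the NRF2 and metal response MT1A and MT1M, both metallothioneins, were called lower, in DU145KO+α2 only. The call of MT1A was lost without DU145KO replicate 1 and without the replicate block. Of 20 inflammatory genes and NF-kB targets CXCL5 was called lower. By adjusted p alone, the drug export, NRF2 and inflammatory lists held 5, 2 and 4 lower genes and 2, 1 and 1 higher ones. Of 39 cell cycle genes none was called, with a median of 0.17 made of 0.02 in DU145KO+α2 and 0.30 in DU145KO+vector. By adjusted p alone, 1 of these 39 genes was lower and 4 were higher. Of 59 ribosomal protein genes none was called, although 16 were higher by adjusted p alone, with a median of 0.12.

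Of 39 matrix genes COL4A5 was called lower and of 20 readouts of TGF-beta, BMP and YAP BMP4 was called lower, whereas none of 18 integrin and DDR genes other than ITGA2, 20 ERK feedback and immediate early genes, 20 hypoxia and glycolysis genes, 25 HOX genes, 10 cancer testis and DNA methylation genes and 11 prostate lineage genes was called. By adjusted p alone, 8.71% of all genes tested were lower and 4.83% higher. On that measure 9 matrix genes were lower and 4 higher, and 6 integrin and DDR genes were lower and 2 higher. Of the hypoxia and glycolysis genes 1 was lower and 6 were higher, with list medians of 0.425 in DU145KO+α2 and -0.095 in DU145KO+vector. The TGF-beta, ERK and HOX lists held 2, 1 and 0 lower genes and 2, 1 and 2 higher ones. The cancer testis list held none and the prostate list 1 of each. Of 33 growth factors and receptors DKK3, a secreted modulator of Wnt signalling, was called higher, and VEGFC, a growth factor of lymphatic vessels, was higher by 0.63 with 12.1 to 15.3 CPM in DU145KO and 17.9 to 26.0 in the transfected samples, which did not overlap. By adjusted p alone, 8 of the 33 were lower and 6 higher, and the shares of these lists were not tested.

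**Figure D5:**
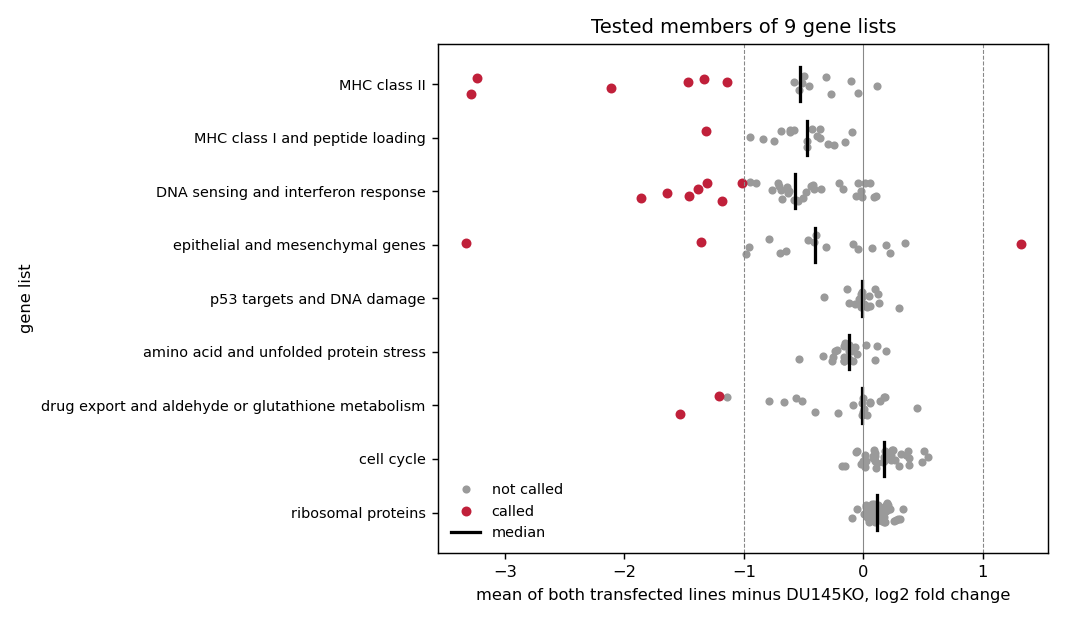
Log2 fold change of the mean of both transfected lines against DU145KO for the tested members of 9 gene lists, with called genes in red, the fold limit of 2 as dashed lines and the median of each list as a black bar. The medians of MHC class II, MHC class I and the interferon list lie at -0.53, -0.47 and -0.57 and that of the p53 list at -0.01.

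Of the 11 genes called higher, FGB was alike and ZEB2 graded, and the other 9 were called in 1 line only. In DU145KO+α2 these were ITGA2, MMP1, an interstitial collagenase (3.08 against 0.69 in DU145KO+vector), DKK3 (1.14 against 0.87), DCLK2, FUT5 and SOX17. In DU145KO+vector they were SEMA3E, a secreted guidance factor (2.64 against 0.30 in DU145KO+α2), AP3B2 and GNG10. DKK3 had 5.56, 4.7, 6.15 and 6.21 CPM in DU145KO, 16.1, 11.5, 11.6 and 11 in DU145KO+α2, and 13.3, 9.69, 9.09 and 9.85 in DU145KO+vector. All transfected samples of DKK3 were above the DU145KO samples, the line difference was 0.26 with an interval of 0.03 to 0.49, and its log2 fold change of 1.01 lay at the fold limit. DKK3 shares 47.5% of its exon bases with USP47 on the opposite strand, as PAPPA (21.1%), MARVELD3 (16.8%), FANCF (9.57%), A2M (8.88%), MMP1 (8.14%) and ZEB2 (4.97%) do with other genes. GNG10 shares 90.5% with the readthrough gene DNAJC25-GNG10 on its own strand. Among the genes called in 1 line only whose average log2 CPM was 1 or more, the largest differences between the transfected lines were in BST1 (-3.84), CHD5 (-3.35) and C1orf116 (-2.84), which were lower in DU145KO+α2, and in ITGA2 (4.12), MMP1 (2.39) and NLRP12 (1.63).

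The chance of a call depended on the level of the gene. Of genes with an average log2 CPM below 1, 5.69% were called, and of those from 1 to 3, from 3 to 5 and of 5 and over, 2.62%, 0.545% and 0.117%. The median SE of the difference between the transfected lines fell from 0.311 in the lowest class to 0.0599 in the highest, so a gene with few reads could more easily be graded only because its interval was wide. Of the 34 alike genes, 11 lay in the lowest class and DSP and FGB in the highest. The called lower genes lay on 22 of the 23 chromosomes counted (the autosomes and X), from none on chromosome 13 to 2.73% of the tested genes on chromosome 4, and on chromosome 6, which holds the MHC, they were 1.81%, against 1.23% of all genes tested. The median log2 fold change of a chromosome ran from -0.15 on chromosome 5, where both lines were lower (-0.15 and -0.13), to 0.08 on chromosome 14.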

How the data were processed

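Spheroid RNA of the 3 lines, with 4 biological replicates each, was sequenced by the authors from stranded mRNA libraries, and the submitters' processing notes name bcl2fastq 1.8.4, TopHat2 2.1.0 and Subread 1.5.0 with genome build hg38. The authors deposited raw read counts per gene from uniquely aligned reads, and whether the counting used strand was not stated. The authors also deposited RPKM values, which are scaled by TMM and gene length and were used here only for levels of genes side by side. Every value column was matched to a sample by its label.

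The counts were fitted by edgeR 4.0.16 under R 4.3.3 (filterByExpr with a minimum count of 10, TMM, robust quasi-likelihood F-test) in one model of all 12 samples with the line and the replicate number as factors. P-values were two-sided and adjusted by the Benjamini-Hochberg method over 14732 genes, SE and 95% intervals come from the fitted model, and CPM values are TMM-scaled. The replicate number was kept as a block because samples of the same number deviated together in all 12 same-number pairs of samples from different lines, with correlations of 0.135 to 0.554. These p-values measure the spread between the samples deposited. The comparison, the gene lists, the limits and the genes named were chosen with earlier results of these data known. The rule for naming genes took ITGA2, the 3 most abundant alike genes in each direction and up to 8 called genes of each list. It also took the 12 alike genes with the lowest and the highest fold change. These needed an average log2 CPM of 1 or more and groups that did not overlap. From the called genes not moved alike, the rule took the 3 that differed most between the transfected lines in each direction. The same limit on log2 CPM applied there. Other genes were added, and the text marks only some of them. HLA-DRB1, SPINT1 and VEGFC were also added after their values were seen. Further list members named in the text, such as IFITM2, STAT2, ERAP2, HLA-B, S100A4 and CLDN4, are outside the rule too. Alternatives were fitted with DESeq2 1.42.0 and with voom in limma 3.58.1. The fitting code was tested on simulated data with known fold changes. Exon overlaps come from the reference annotation, and promoters from RefSeq. Parental DU145 cells were not analysed here.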

Additional observations from a re-analysis of the deposited data

Results flagged for a closer look

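In 13 of the 201 groups of 4 samples of the named genes, 1 sample stood apart from the other 3 by Dixon's criterion, where chance gives 10.1. Its gap as a share of the range was 0.899 for HLA-DRA, 0.857 for CD74 and 0.86 for GBP1 in DU145KO, in each of which replicate 1 was the highest, with HLA-DRA at 23.4 CPM against 12.7 to 13.7. RNF128 stood at 0.831 in DU145KO, where replicate 4 was the lowest, and at 0.912 in DU145KO+α2. Replicate 1 was also the highest sample in DU145KO+α2 for RNF128, BST1 (0.942), BST2 (0.841), DKK3 (0.89) and MX1 (0.883), and replicate 4 was the highest there for CHD5 (0.908). In DU145KO+vector, replicate 1 was the highest for AKR1B10 (0.856), replicate 4 was the lowest for MMP1 (0.86) and the highest for VEGFC (0.854).

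The effect against DU145KO differed between the transfected lines by a fold above 2, tested as DU145KO+α2 minus DU145KO+vector in edgeR, in 26 of the called genes named. The log2 difference was negative in BST1 (-3.84), CHD5 (-3.35), C1orf116 (-2.84), IFI44L (-2.36), SEMA3E (-2.35), XAF1 (-1.83), AP3B2 (-1.69), BST2 (-1.69), OAS1 (-1.60), GBP1 (-1.57), NPNT (-1.48), MUC16 (-1.24), ST14 (-1.24), MX1 (-1.21), MT1M (-1.17), OAS2 (-1.13), AKR1B10 (-1.06), FANCF (-1.05) and SAMD9 (-1.02). It was positive in ITGA2 (4.12), MMP1 (2.39), FUT5 (2.11), NLRP12 (1.63), A2M (1.11), SOX17 (1.04) and DCLK2 (1.01). ITGA2 is the gene that the plasmid of DU145KO+α2 carries. Of all genes tested, 395 (2.68%) differed between the transfected lines in this way. The rule for naming genes took some of the 26 for this difference, so their count follows partly from the rule.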

How the results depend on the processing

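The contrast was recomputed under other scalings, filters, thresholds and tools and without each sample in turn. The count of called genes (192, 181 lower and 11 higher) became 68, 64 and 4 with at least 10 counts required in every sample, a filter that removes genes that are low in the transfected lines, and 1995, 1283 and 712 without the fold limit, where 64.3% were lower against 94.3%. A test against a fold of 1.5 called 5 genes higher. The 34 alike genes became 100 with no limit on the line difference and 9 with a limit of a fold of 1.5. Without the replicate block 165 genes were called, 157 lower and 8 higher, and 24 were alike, of which 23 were among the 34, and the calls of BST2, FGB, FUT5, MT1A, NLRP12, OAS2 and SOX17 were lost. DESeq2 called 185 and voom with limma 195 genes, with 41 alike under voom. Leaving out 1 sample gave 173 to 221 called genes, 165 to 209 lower, 8 to 16 higher and 24 to 39 alike. Among the named genes no alternative reversed a direction, 42 of the values lost a call, most often for AP3B2, DKK3 and MX1, whose fold changes lie at the limit, and 6 gained one. The median log2 fold change of all genes tested was 0.00094 in the main fit. It was 0.00596 with DESeq2 size factors and -0.00049 with library size alone, and the highest value in any setting was 0.0107. Depth limits genes of few reads, in which a wide interval alone can keep a gene out of the alike set.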

Other observations

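On chromosome 9 the transfected lines went different ways, with a median log2 fold change over 624 tested genes of -0.15 in DU145KO+α2 and 0.14 in DU145KO+vector, so that the median of the mean of both lines was 0.00096. On chromosome 21, with 133 tested genes, the medians were -0.13 and -0.10. No test was made of these medians.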
